A study of Mus musculus with 8 samples.

Results

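The expression of 30 oligodendrocyte lineage and myelin genes was described in the hypothalamus of mice that lack membrane-initiated estrogen receptor alpha signaling in POMC neurons. The 30 genes were given as a list, grouped by stage and matched by Ensembl identifier, and all 30 were found among the 55890 genes of the count table. The list holds 2 genes of precursors, 5 of newly formed oligodendrocytes, 3 lineage transcription factors and 20 genes of myelinating cells.

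RNA came from the hypothalamus of 16-week-old female mice, 8 animals per genotype, and was pooled at random in pairs, so that each genotype has 4 pools of 2 animals and each pool is 1 poly(A) RNA library. POMC-C451Af/f mice carry a POMC-Cre transgene and floxed Esr1 alleles (C451Af/f) in which Cre brings out a mutation of the palmitoylation site that the receptor needs at the membrane. The control pools are labelled wildtype, while the methods of the study describe littermates homozygous for the floxed allele without Cre. POMC-Cre acts in POMC neurons and can also be active in cells that express Pomc only during development. Total estimated counts were 36095253 to 40498166 in the POMC-C451Af/f pools (median 36608052) and 37841365 to 48942116 in the control pools (median 41723908). Levels are given as CPM, a gene's count as a share of its library, on library sizes scaled by the trimmed mean of M values. Values of pools are listed in the order of replicates 1 to 4, with POMC-C451Af/f before control.

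Oligodendrocytes wrap axons in myelin, a compact stack of lipid-rich membrane that speeds conduction. They arise throughout life from precursors that divide, pass through a short newly formed stage and then either die or mature into cells that keep myelin in place. In the hypothalamus, myelin is sparse in most nuclei and dense in tracts that cross or border it, such as the fornix and optic tract. The myelin RNA of a dissected block can therefore vary with the white matter it holds, which was not measured here.

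Esr1, the targeted gene, was measured at 11.6, 12.2, 9.996 and 10.8 against 12.3, 12.8, 11.6 and 15.97 CPM. The groups overlapped, since control replicate 3 lay below POMC-C451Af/f replicates 1 and 2, and control replicate 4 lay well above every other pool. Its log2 fold change (POMC-C451Af/f over control) was -0.23 ± 0.10 (SE), with unadjusted p = 0.0462 and adjusted p = 0.878 by edgeR. Gene counts cannot show the mutated allele or the cells it is in. Pomc itself was at 49.5, 50.2, 35.8 and 30.6 against 98.9, 49.7, 50.5 and 50.8 CPM, with control replicate 1 far above the other pools. The other control pools were level with POMC-C451Af/f replicates 1 and 2, and POMC-C451Af/f replicates 3 and 4 lay below them. The log2 fold change of Pomc was -0.59 ± 0.24 (SE), with unadjusted p = 0.0319 and adjusted p = 0.878 by edgeR. Control replicate 1 also held the highest sum of anterior pituitary genes, given below, and the part of that tissue in Pomc was not tested.

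Some pools stood apart in markers of other tissue. Markers of midbrain dopaminergic neurons, which lie caudal to the hypothalamus, summed to 279, 219, 441 and 319.6 against 187, 180.2, 219 and 235 CPM. POMC-C451Af/f replicates 3 and 4 had the highest sums of these 8 genes. Replicate 1 of POMC-C451Af/f also lay above every control pool, and replicate 2 lay within the control range. All 8 pools held these genes, and Th and Slc18a2 are also expressed by dopamine neurons of the hypothalamus. Hypothalamic genes, among them the neuropeptides Pmch, Hcrt, Agrp, Avp, Oxt, Crh and Trh, were present in every pool, and their 10 genes summed to 1147, 1339, 806 and 1027 against 1566, 1138, 1363 and 1101 CPM. POMC-C451Af/f replicate 3 had the lowest and control replicate 1 the highest of these sums. Anterior pituitary genes summed to 223, 31.1, 16.5 and 189 against 1447, 95.8, 20.7 and 32.3 CPM, with control replicate 1 again apart. Values of the members without POMC-C451Af/f replicates 3 and 4 are given below, after those of all pools.

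All 30 members passed the filter on low counts. Per kilobase of exon, using union exon lengths of the GENCODE M21 annotation, mean levels over the 8 pools ran from 316 CPM per kb for Mbp to 1.12 for Enpp6. Structural myelin genes led, with Mobp at 135, Cnp at 95.1, Mal at 82.3 and Cldn11 at 73.9 CPM per kb. Trf stood at 87.2 and Apod at 60.3 CPM per kb. Among the other stages, Olig1 was the most abundant lineage factor at 79.3, Bcas1 the most abundant newly formed gene at 48.04, and Pdgfra the most abundant precursor gene at 6.32 CPM per kb. Lowest besides Enpp6 were Aspa at 2.54, Cspg4 at 3.33 and Neu4 at 3.601 CPM per kb. Because the tissue is bulk, fewer oligodendrocytes and less RNA of a member in each of them cannot be told apart.

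**Figure D1:**
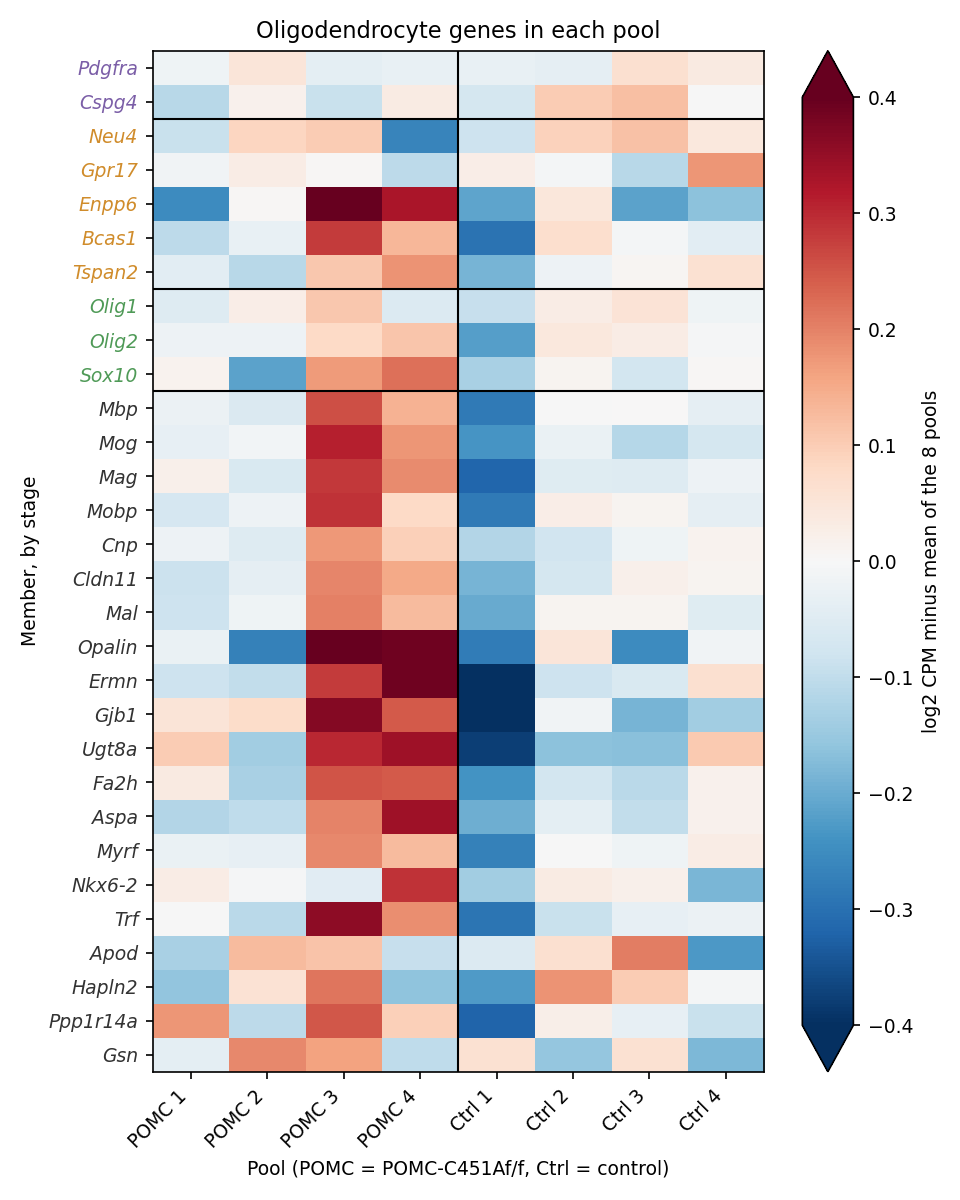
Each member (vertical axis, by stage) in each of the 8 pools (horizontal axis), coloured by log2 CPM minus the gene's mean over the pools, with the colour saturating at 0.4 in either direction. POMC-C451Af/f replicates 3 and 4 are the darkest in the higher direction for most myelinating genes and control replicate 1 in the lower direction, while Pdgfra and Cspg4 show little of either.

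The precursor genes were nearly level over the pools. Pdgfra (ENSMUSG00000029231.16), the receptor for the growth factor that keeps precursors dividing, was at 62.5, 65.5, 61.6 and 62.1 against 61.98, 61.7, 66.2 and 64.9 CPM. Its pools overlapped and none stood out, and the coefficient of variation over the 8 pools was 2.98%. The log2 fold change of Pdgfra was -0.017 ± 0.038 (SE), with adjusted p = 0.957 by edgeR. Cspg4, the NG2 proteoglycan on precursors and on pericytes, was at 36.7, 40.2, 37.3 and 40.6 against 37.8, 42.5, 43.1 and 39.6 CPM, and its groups overlapped. For Cspg4 the log2 fold change was -0.076 ± 0.052 (SE), and -0.11 to -0.049 with single pools left out, the last without control replicate 3. That of Pdgfra turned to 0.00094 without control replicate 3.

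Among the newly formed genes, the pools behaved in more than one way. Gpr17, a receptor of late precursors and newly formed cells that falls silent as myelin forms, was at 82.5, 84.95, 83.6 and 77.5 against 84.8, 82.9, 77.1 and 94.1 CPM. POMC-C451Af/f replicate 4 and control replicate 3 were its lowest pools, and the groups overlapped. Neu4, a sialidase of the same early stage, was at 15.7, 17.7, 17.8 and 13.9 against 15.7, 17.7, 18.04 and 17.1 CPM, with POMC-C451Af/f replicate 4 lowest and the groups again overlapping. The log2 fold changes were -0.044 for Gpr17 and -0.079 for Neu4, and without POMC-C451Af/f replicate 4 they were -0.017 and -0.010. The sign of Gpr17 rests on control replicate 4, without which it was 0.0087, and Neu4 was at -0.13 without POMC-C451Af/f replicate 3.

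Enpp6, a choline phosphodiesterase that marks cells that have just left the cell cycle to make myelin, was at 5.95, 7.12, 9.77 and 8.9 against 6.13, 7.31, 6.12 and 6.33 CPM. Its POMC-C451Af/f replicates 3 and 4 stood above every other pool, while replicates 1 and 2 lay in the control range or close to it. With log2 fold change 0.29 ± 0.15 (SE), Enpp6 had unadjusted p = 0.0704 by edgeR. Bcas1, which marks early myelinating oligodendrocytes, was at 168, 177, 219 and 198 against 147, 189, 179 and 175 CPM. POMC-C451Af/f replicate 3 was highest, control replicate 1 lowest, and the groups overlapped. The log2 fold change of Bcas1 was 0.14 ± 0.091 (SE). Tspan2, a tetraspanin of maturing oligodendrocytes, ranged over the pools by a factor of 1.29 and had log2 fold change 0.07.

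The 3 lineage factors bind DNA at all stages of the lineage. Olig1, a basic helix-loop-helix factor, was at 165, 175, 185 and 165 against 161, 175, 178 and 169 CPM, and its groups overlapped. Olig2, which sets the fate of the lineage, was at 44.6, 44.7, 47.8 and 48.9 against 38.9, 46.6, 46.2 and 45.1 CPM. Control replicate 1 was the lowest pool for Olig2 and the other pools lay close together. Sox10, which drives the myelin genes together with Myrf, was at 57.6, 49.2, 64.2 and 66.5 against 52.3, 57.6, 54.3 and 57.3 CPM. Its POMC-C451Af/f replicates 3 and 4 were highest, POMC-C451Af/f replicate 2 was lowest, and the groups overlapped. The log2 fold changes were 0.014 for Olig1, 0.072 for Olig2 and 0.10 for Sox10. Olig2 was at 0.014 without control replicate 1, and Sox10 at 0.042 without POMC-C451Af/f replicate 4 and 0.18 without replicate 2. Olig1 turned to -0.021 without POMC-C451Af/f replicate 3 and -0.015 without control replicate 1.

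The structural genes of myelin were highest in the same pools as the midbrain sums. Mbp, which holds the cytoplasmic faces of the membrane together, was at 2622, 2559, 3184 and 2932 against 2189, 2661, 2665 and 2594 CPM. POMC-C451Af/f replicates 3 and 4 were highest, control replicate 1 was lowest, and the groups overlapped. The log2 fold change of Mbp was 0.16 ± 0.077 (SE) with unadjusted p = 0.0637 by edgeR. Mobp, a basic protein of the compacted membrane, was at 879.5, 907, 1126 and 974 against 756, 938, 927 and 899 CPM, with the same pools at either end. Its log2 fold change was 0.14. Cnp, a phosphodiesterase that keeps cytoplasmic channels open inside myelin, was at 341, 333, 389.7 and 369 against 318, 328, 341 and 349 CPM. Its log2 fold change was 0.10, and its pools differed the least of these structural genes. Mal, a proteolipid of myelin rafts, was at 215, 225, 262 and 249 against 198, 229.7, 229.9 and 220.4 CPM, with POMC-C451Af/f replicates 3 and 4 highest and a log2 fold change of 0.12. Cldn11, the claudin of the tight junctions within myelin, had log2 fold change 0.12.

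Mog and Mag are glycoproteins of the outermost and innermost layers of the sheath. Mog (ENSMUSG00000076439.13), a glycoprotein on the outer surface of myelin that is restricted to myelinating oligodendrocytes, was at 48.2, 48.9, 61.1 and 55.7 against 41.8, 48.4, 45.5 and 46.96 CPM. POMC-C451Af/f replicates 3 and 4 stood above all other pools, control replicate 1 below them, and POMC-C451Af/f replicate 1 lay below control replicate 2, so that the groups overlapped. The means were 53.5 ± 6.11 CPM against 45.7 ± 2.82 CPM (SD, n = 4 pools each). Mog's log2 fold change was 0.23 ± 0.076 (SE) with unadjusted p = 0.01304 and adjusted p = 0.878 by edgeR. Mag, the adhesion molecule between the sheath and the axon, was at 204, 193, 245 and 229.5 against 161, 195, 194 and 198 CPM. Its control replicate 1 lay well below the other control pools, and POMC-C451Af/f replicate 2 lay below control replicates 2 to 4. For Mag the log2 fold change was 0.22 ± 0.082 (SE) with unadjusted p = 0.0229 by edgeR.

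Promoter sequence is printed for 4 members, to set genes that varied together beside a gene that did not: Mog, against which the other members are compared below, Mobp and Mag, and Pdgfra. Each is the 250 bases before the RefSeq start, read 5′ to 3′ on the strand of the gene in build GRCm38.p6, and capitals mark matches on either strand to ACAAAG or ACAATG, bound by SOX factors, and to CTGGCAC, bound by MYRF. The windows are chr17:37023399-37023648 (minus strand) for Mog, chr9:120149492-120149741 (plus strand) for Mobp, chr7:30914864-30915113 (minus strand) for Mag, the first of its 3 listed promoters, and chr5:75152001-75152250 (plus strand) for Pdgfra.
Mog: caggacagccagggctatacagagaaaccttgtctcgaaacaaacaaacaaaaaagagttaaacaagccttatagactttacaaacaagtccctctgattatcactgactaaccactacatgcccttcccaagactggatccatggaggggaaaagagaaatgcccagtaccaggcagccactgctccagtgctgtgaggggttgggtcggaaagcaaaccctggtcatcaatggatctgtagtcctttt
Mobp: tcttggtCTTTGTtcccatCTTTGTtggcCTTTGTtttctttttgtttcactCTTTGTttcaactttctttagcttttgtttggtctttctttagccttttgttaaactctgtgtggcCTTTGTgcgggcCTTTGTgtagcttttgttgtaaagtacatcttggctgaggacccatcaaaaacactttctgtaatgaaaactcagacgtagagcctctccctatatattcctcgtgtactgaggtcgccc
Mag: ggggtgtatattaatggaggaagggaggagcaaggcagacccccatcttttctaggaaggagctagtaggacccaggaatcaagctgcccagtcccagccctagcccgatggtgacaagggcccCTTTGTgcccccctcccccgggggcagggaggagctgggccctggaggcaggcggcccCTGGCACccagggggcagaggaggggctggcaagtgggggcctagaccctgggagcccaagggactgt
Pdgfra: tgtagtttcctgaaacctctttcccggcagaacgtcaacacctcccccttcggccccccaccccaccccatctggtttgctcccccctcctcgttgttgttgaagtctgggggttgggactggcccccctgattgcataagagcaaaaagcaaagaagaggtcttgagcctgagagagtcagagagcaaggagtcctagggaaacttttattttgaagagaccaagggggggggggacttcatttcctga
Mobp holds 6 SOX matches, Mag 1 SOX match and 1 MYRF match, and Mog and Pdgfra none. Of 30 promoters of the 22 members with an entry, 13 (43.3%) hold a SOX match, against 25.2% of all 32851 promoters of the same length. The MYRF letters are in 4 of 30 (13.3%), against 4.19% of all, and the E-box CAGCTG, a site of basic helix-loop-helix factors, in 4 of 30 (13.3%), against 13% of all. Some members have several promoters, and 8 members have none listed. The SOX matches belong to 11 genes, the MYRF letters to 3 and the E-box to 3. Each motif was counted on its own, and no motif holds another. These matches describe letters in a window and say nothing of binding here, and the motifs and the shown promoters were chosen after the values were seen.

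Gjb1 (ENSMUSG00000047797.15), connexin 32 of the gap junctions between the layers of the sheath, was at 13.6, 13.8, 16.9 and 15.5 against 9.95, 13.00, 11.5 and 11.9 CPM. It was the single member whose groups did not overlap, with the lowest POMC-C451Af/f pool, replicate 1, just above control replicate 2. The means were 14.96 ± 1.57 CPM against 11.6 ± 1.26 CPM (SD, n = 4 pools each). Gjb1 had the largest log2 fold change among the members, 0.37 ± 0.094 (SE), with unadjusted p = 0.00281 and adjusted p = 0.878 by edgeR.

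Among the members, Ugt8a, Fa2h and Aspa encode enzymes of myelin lipids, and the groups of each overlapped. Ugt8a, which makes galactosylceramide, was at 52.8, 44.7, 60.6 and 62.2 against 37.9, 43.9, 43.9 and 52.9 CPM. The control and POMC-C451Af/f pools overlapped, with control replicate 4 at the level of POMC-C451Af/f replicate 1. Ugt8a had log2 fold change 0.30 ± 0.11 (SE) and unadjusted p = 0.0233 by edgeR. Fa2h, which hydroxylates the fatty acids of those lipids, was at 48.3, 43.01, 56.05 and 55.8 against 39.9, 44.8, 43.7 and 47.6 CPM, with POMC-C451Af/f replicate 2 below every control pool but replicate 1. The log2 fold change of Fa2h was 0.21 ± 0.084 (SE) with unadjusted p = 0.0335 by edgeR. Aspa, which releases acetate from N-acetylaspartate for lipid synthesis, had log2 fold change 0.17.

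Transcription factors of the mature cell were Myrf and Nkx6-2. Myrf, which switches on and maintains the myelin genes, was at 91.7, 91.2, 107 and 102 against 77.5, 93.3, 92.2 and 95.2 CPM. POMC-C451Af/f replicates 3 and 4 were highest, control replicate 1 lowest, and POMC-C451Af/f replicates 1 and 2 lay within the control range. Its log2 fold change was 0.13, and that of Nkx6-2, a homeodomain factor of maturing oligodendrocytes, was 0.13. Opalin, a sialylglycoprotein of central myelin, was at 13.7, 11.6, 18.4 and 18.3 against 11.5, 14.4, 11.7 and 13.8 CPM. POMC-C451Af/f replicates 3 and 4 stood above all other pools for Opalin, and its POMC-C451Af/f replicate 2 was among the lowest. The log2 fold changes were 0.27 for Opalin and 0.25 for Ermn, an actin-binding protein of late myelinating cells.

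The remaining myelinating members fell into different patterns. Trf, the iron carrier that oligodendrocytes make, was at 287, 267, 368 and 326 against 235, 270.2, 281 and 283 CPM, with POMC-C451Af/f replicates 3 and 4 highest and overlapping groups. Trf had log2 fold change 0.22 ± 0.094 (SE) and unadjusted p = 0.0372 by edgeR. Of the longest Trf transcript, 82.1% is shared with the readthrough gene Gm20425 of the M21 annotation, so reads can fit both. Ppp1r14a, an inhibitor of myosin phosphatase, was at 13.5, 11.1, 14.2 and 12.8 against 9.58, 12.1, 11.7 and 11.2 CPM. Its control replicate 1 was lowest and the groups overlapped, with log2 fold change 0.21 ± 0.094 (SE) and unadjusted p = 0.0487 by edgeR.

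Apod, a lipid carrier made by oligodendrocytes and also by astrocytes and meningeal cells, was at 141, 169, 168 and 145 against 149, 162, 178 and 132 CPM. Its group means were close, and POMC-C451Af/f replicate 4 was low where most myelin genes were high. Hapln2, a link protein at the nodes of Ranvier, was at 41.9, 48.7, 54.2 and 41.8 against 39.97, 52.9, 50.1 and 46.5 CPM, with replicate 3 highest and replicates 1 and 4 lowest among the POMC-C451Af/f pools. Gsn, the actin-severing protein gelsolin, which other cells express too, was at 58.3, 68.4, 66.97 and 55.8 against 62.4, 53.8, 62.5 and 52.8 CPM. The groups of Hapln2 and Gsn overlapped. The log2 fold changes were 0.0042 for Apod, -0.024 for Hapln2 and 0.11 for Gsn.

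**Figure D2:**
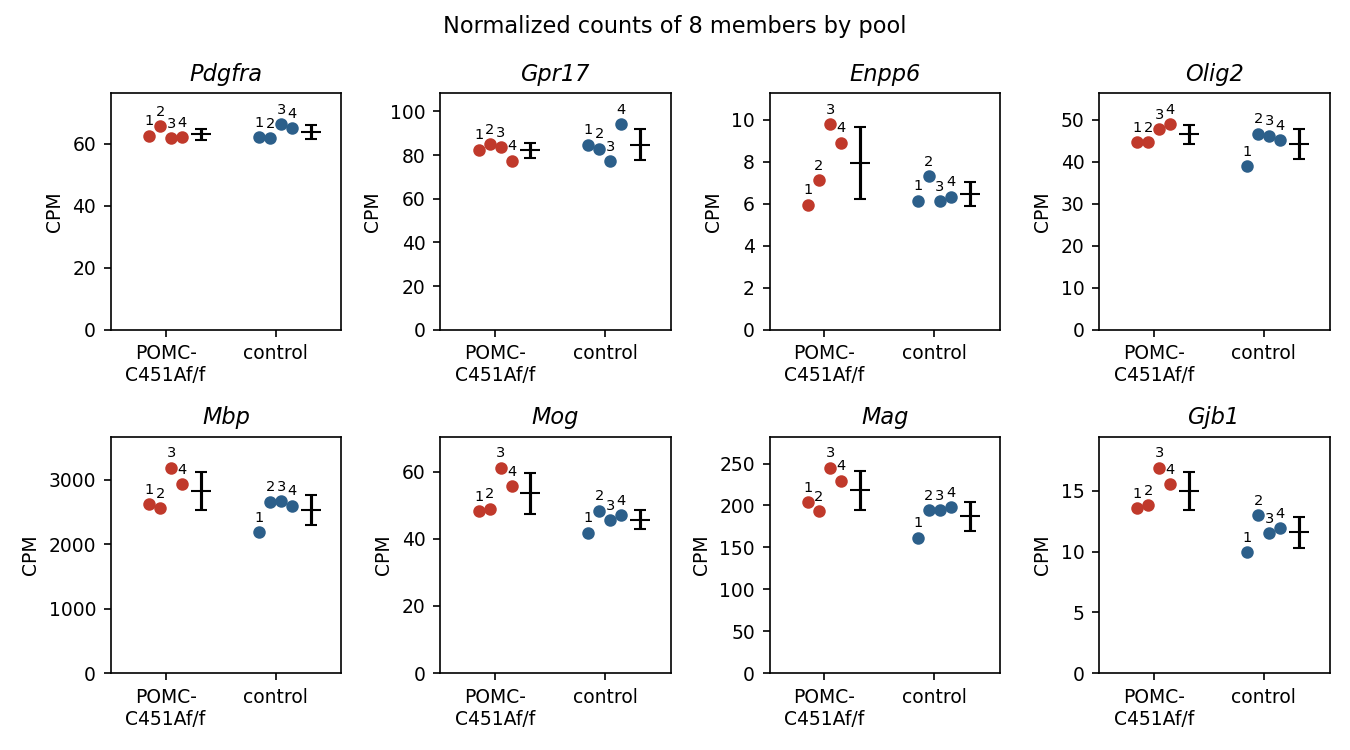
CPM of 8 members in each pool, with POMC-C451Af/f and control pools side by side, the replicate number at each point and a black bar for mean ± SD (n = 4 pools per genotype). Gjb1 alone shows no overlap, with POMC-C451Af/f pools at 13.6 to 16.9 and control pools at 9.95 to 13.00 CPM.

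At an adjusted p under 0.05 with an absolute log2 fold change over 0.5, edgeR called 0 of the 30 members, and DESeq2 called 0 as well. Over all genes edgeR called 4 of 18637 (0.0215%), and these were Efr3b, Myo7a, Mrpl48-ps and Gm44675, named here after their values were seen. At an unadjusted p under 0.05, 7 of 30 members were higher in POMC-C451Af/f (2.7% of all genes tested) and 0 were lower (2.39%), while 5.1% of all genes reached that p in either direction. The 7 were Gjb1, Mog, Mag, Ugt8a, Fa2h, Trf and Ppp1r14a, all of the myelinating stage. DESeq2, run without the filter on low counts, gave 8 members at that level (2.81% of its 32195 genes). That share includes low-count genes and is not comparable with the 5.1% of edgeR. By DESeq2 the smallest adjusted p of a member was 0.206. Of the members, 1 had all POMC-C451Af/f pools above all control pools (1.34% of all genes) and 0 had them below (1.45%). No member passed the adjusted test, which does not show that the members were equal between genotypes.

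Stages differed in where their log2 fold changes lay. The median was -0.047 over the 2 precursor genes, with both below 0. It was 0.07 over the 5 newly formed genes and 0.072 over the 3 lineage factors. Over the 20 myelinating genes it was 0.17, with 19 above 0 and Hapln2 below, although Hapln2 and Apod each turned sign in 4 of the 8 fits that left out 1 pool. Over all 18637 genes tested the median was 0.00085. These medians are descriptions of lists and carry no test.

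**Figure D3:**
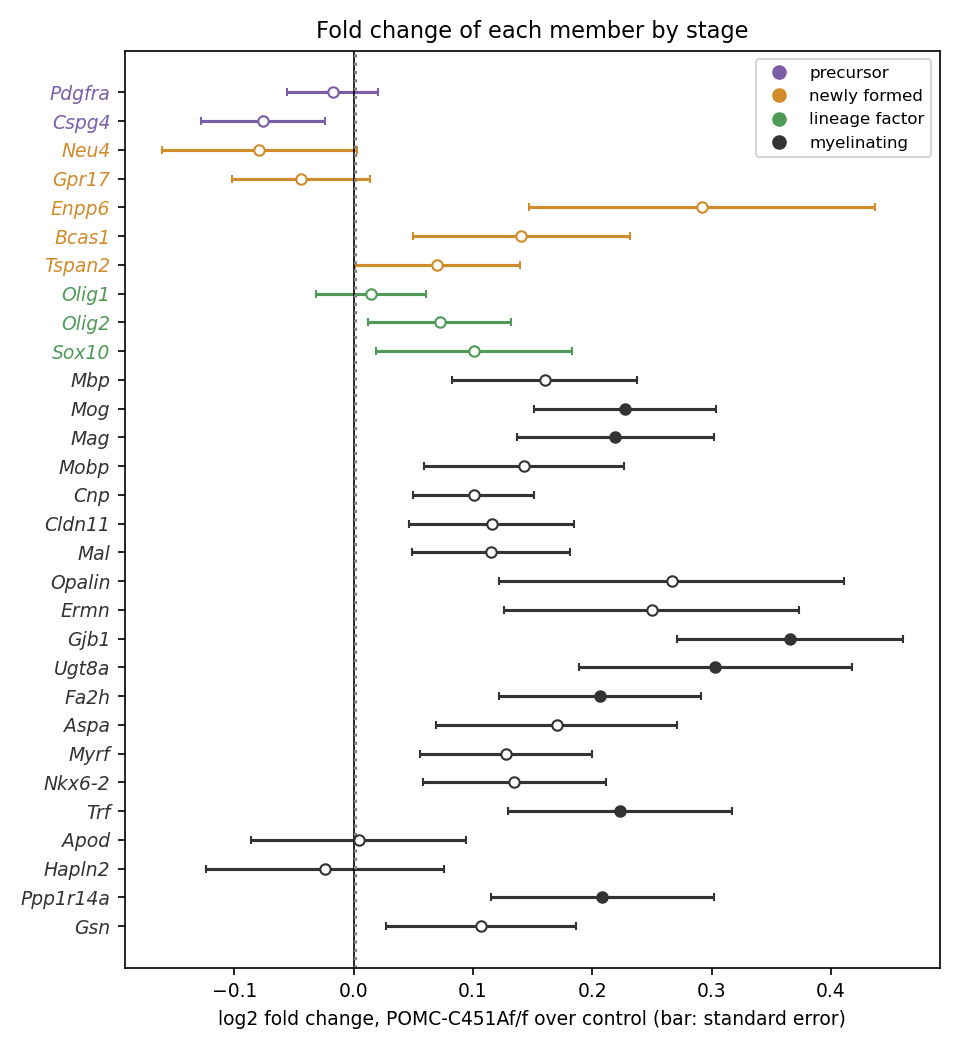
Log2 fold change of each member (POMC-C451Af/f over control, horizontal axis) with its standard error, grouped by stage, with filled points for unadjusted p under 0.05 and a dotted line at the median of all genes. The 7 filled points are all myelinating genes, and Pdgfra and Cspg4 lie just below 0.

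The counts and medians of the myelinating members depended on few pools. POMC-C451Af/f replicate 3 was the highest pool for 17 of 30 members and replicate 4 for 7, both were the top 2 pools for 20 members, and control replicate 1 was the lowest pool for 21. Of all 18637 genes tested, POMC-C451Af/f replicate 3 was highest for 2954, replicate 4 for 3248 and both for 1616, and control replicate 1 was lowest for 3301. Leaving out the pools that are highest for a gene must lower its fold change, so the fits without them do not bear on a cause. Without POMC-C451Af/f replicates 3 and 4, the myelinating median was 0.034 and 1 member, Gjb1, had an unadjusted p under 0.05. In the same fit the newly formed median was -0.016 and the lineage factor median -0.0049, both with the sign turned, and the precursor median was -0.038. Leaving out POMC-C451Af/f replicate 3 alone, replicate 4 alone or control replicate 1 alone each brought the count of 7 members to 2, Gjb1 and Mog. Over all genes the share at that p then was 3.38%, 4.34% and 3.37%, against 5.1% in all pools, and 3.04% without both replicates. Leaving out POMC-C451Af/f replicate 1 or replicate 2 brought the members to 13, with 5.32% and 9.38% of all genes. With the average level of the 8 midbrain genes in the fit as a covariate, an alternative chosen after seeing the data, the count was 0 (2.98% of all genes) and the myelinating median was -0.0038. That average was itself higher in most POMC-C451Af/f pools, at 4.04, 3.47, 4.72 and 4.24 against 3.20, 3.05, 3.53 and 3.79 (mean log2(CPM + 0.5)). The fit therefore cannot tell the covariate and genotype apart. Of the 20 myelinating genes, 13 had POMC-C451Af/f replicates 1 and 2 both within the control range, as had 8559 of 18637 genes tested, and in 15 the mean of those 2 pools was above the control mean, as in 9166 of all genes.

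Most myelinating members differed less between genotypes without POMC-C451Af/f replicates 3 and 4. These were the top 2 pools for 15 of the 20 myelinating members, so leaving them out had to lower those fold changes. The values below therefore say nothing of a cause. The log2 fold change then was 0.24 for Gjb1, 0.14 for Ppp1r14a, 0.13 for Ugt8a, 0.090 for Mog, 0.086 for Mag, 0.055 for Fa2h and 0.052 for Trf, the 7 members with the smallest p in all pools. For the structural genes it was 0.037 for Mbp, 0.023 for Mobp, 0.013 for Cnp, 0.0059 for Mal and -0.0057 for Cldn11. It was 0.031 for Myrf, 0.075 for Nkx6-2, 0.023 for Ermn, -0.024 for Opalin and -0.029 for Aspa. The early myelinating markers went the same way, to 0.014 for Enpp6, -0.0017 for Bcas1 and -0.042 for Tspan2, and Sox10 went to -0.050. Gsn was at 0.13 and Hapln2 at -0.065, both farther from 0 than in all pools, while Gsn was at 0.057 without POMC-C451Af/f replicate 2 alone and 0.065 without control replicate 4 alone. Leaving out POMC-C451Af/f replicate 3 alone brought Enpp6 to 0.18, Opalin to 0.17, Trf to 0.13, Mbp to 0.097, Bcas1 to 0.066 and Mobp to 0.064. In the same fit Myrf was at 0.083, Gsn at 0.071, Mal at 0.065 and Cnp at 0.057. Leaving out control replicate 1 alone brought Mbp to 0.096, Mobp to 0.075, Bcas1 to 0.069 and Myrf to 0.063. Without that pool Ermn was at 0.16, Cldn11 at 0.072 and Mal at 0.068.

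Ratios of members within a pool do not depend on the scaling of libraries. They were chosen after the values were seen, so their tests support nothing and are given only because they were run. The ratio of Mog to Pdgfra in CPM was 0.770, 0.747, 0.991 and 0.897 against 0.675, 0.783, 0.687 and 0.723. Control replicate 2 lay above POMC-C451Af/f replicates 1 and 2, so that the groups overlapped (two-sided exact permutation p = 0.0857, adjusted p = 0.0857 over both ratios). The ratio of Mog to Olig2, a factor of the whole lineage, was 1.079, 1.096, 1.279 and 1.139 against 1.075, 1.037, 0.984 and 1.042. These groups did not overlap, although POMC-C451Af/f replicate 1 and control replicate 1 were almost level (two-sided exact permutation p = 0.0286, the smallest that 4 against 4 pools allow, adjusted p = 0.0571).

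Across the 8 pools, most myelinating members followed Mog. Correlations were computed for log2(CPM + 0.5) of each of 18636 other genes with Mog, with exact permutation over every pairing of the pools and adjustment over all genes. Among the members, Gjb1 followed it most closely, with r = 0.97 (exact permutation p = 4.96e-05, adjusted p = 0.0924) and rho = 0.976 (p = 3.97e-04, adjusted p = 0.211), and r was 0.931 without POMC-C451Af/f replicate 3 and control replicate 1, the pools farthest from the median of Mog. Mag gave r = 0.96 (exact permutation p = 0.00149, adjusted p = 0.1198) and rho = 0.6905 (p = 0.0694, adjusted p = 0.479), with r = 0.891 without those pools. For Mbp, r was 0.94 (exact permutation p = 0.00248, adjusted p = 0.121) and rho 0.619 (p = 0.115, adjusted p = 0.534), and r was 0.817 without them.

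Over members, the median r with Mog was 0.89 for the 19 other myelinating genes, against -0.0015 for all genes, and 0.78 without the pools farthest from the median. Centred on the mean of each genotype it was 0.88. It was 0.68 without POMC-C451Af/f replicates 3 and 4 together, an alternative chosen after seeing the data, and 0.15 with Gapdh in place of Mog. The lowest myelinating members were Apod (r = 0.14), Gsn (r = 0.16), Hapln2 (r = 0.40) and Nkx6-2 (r = 0.46). Without the pools farthest from the median of Mog, r was -0.28 for Apod, -0.17 for Gsn, -0.57 for Hapln2 and 0.82 for Nkx6-2, so that the sign of the first 3 rests on those pools. At an unadjusted p under 0.05, 20 of 29 members correlated positively with Mog (9.68% of all genes) and 0 negatively (8.52%), and 15 of the 20 were myelinating genes. At an adjusted p under 0.05, 0 members and 0 of all genes (0%) did so with either sign or by rank.

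Newly formed genes split in the same measure. Enpp6 had r = 0.92 (exact permutation p = 0.00181, adjusted p = 0.1198) and rho = 0.8095 (p = 0.0218, adjusted p = 0.436), with r = 0.8998 without the 2 farthest pools. Bcas1 (r = 0.92) and Tspan2 (r = 0.76) also followed Mog, while Neu4 (r = -0.08) and Gpr17 (r = -0.20) lay below 0. The lineage factors had r of 0.52 for Olig1, 0.77 for Olig2 and 0.76 for Sox10. Without the 2 farthest pools, r was -0.63 for Olig1, whose sign rests on those pools, 0.71 for Olig2, 0.67 for Sox10, -0.86 for Neu4 and -0.34 for Gpr17. Pdgfra had r = -0.37 (exact permutation p = 0.367, adjusted p = 0.665) and rho = -0.405 (p = 0.327, adjusted p = 0.713), with r = -0.595 without the 2 farthest pools, and Cspg4 had r = -0.18. The median r between pairs of myelinating members was 0.83, against 0.65 between pairs of all members and -0.001 between pairs of all genes.

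**Figure D4:**
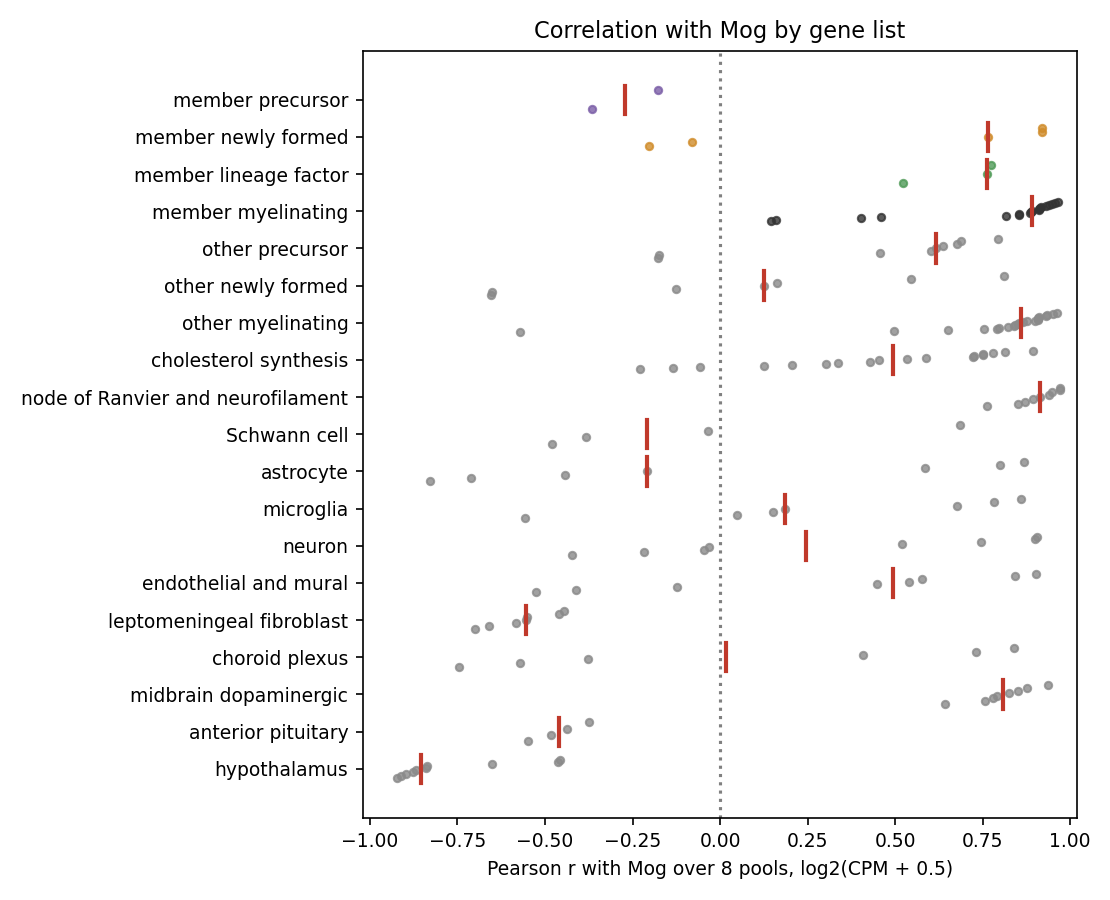
Pearson r with Mog over the 8 pools (horizontal axis) for each gene, on a line for each member stage and each other gene list (vertical axis), with a red bar at the median of the list and points shifted up or down only so that they can be seen apart. The median of the myelinating members is 0.89 and that of the hypothalamic genes -0.854, while the precursor members Pdgfra and Cspg4 lie below 0.

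Outside the members, the 10 genes with the highest r with Mog were Rnf44, Fibcd1, Stk39, Kcna2, Nefm, Bcl2l2, Evi2a, Ghitm, Kat2b and Esrrg, with r from 0.966 to 0.977. Of these 10, Kat2b alone ranked the pools as Mog did, with rho = 1 (exact permutation p = 4.96e-05, adjusted p = 0.116) and r = 0.967 (p = 2.48e-05, adjusted p = 0.07703, r = 0.866 without the 2 farthest pools). Kcna2 and Nefm encode a potassium channel beside the nodes of Ranvier and a neurofilament of axons.

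Other oligodendrocyte genes were read by the same stages. Of 22 other myelinating genes, 0 were called, 8 had an unadjusted p under 0.05 and were higher, and the median log2 fold change was 0.16. The same pools were at either end, with POMC-C451Af/f replicates 3 and 4 the top 2 for 18 of 22 and control replicate 1 lowest for 18, and the median r with Mog was 0.859, or 0.720 without the 2 farthest pools. Among the 8 were Gpr37 (log2 fold change 0.21), Car2 (0.29), Tmem88b (0.23), Lpar1 (0.20), Nipal4 (0.37) and Hhip (0.40). Of 9 other precursor genes, with Cacng4 the most abundant, 0 reached that p, the median log2 fold change was 0.028, and the median r with Mog was 0.617, or 0.286 without the 2 farthest pools. The 7 other newly formed genes, with Sirt2 the most abundant, had a median log2 fold change of 0.017, a median r of 0.125 (0.115 without the 2 farthest pools) and 0 at that p.

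Myelin takes up much of the cholesterol made in the brain. Among 18 genes of cholesterol synthesis, with Hmgcs1 the most abundant, 0 were called and 4 had an unadjusted p under 0.05, all higher, namely Idi1 (log2 fold change 0.18), Sqle (0.12), Hsd17b7 (0.29) and Sc5d (0.13). The median log2 fold change was 0.079 and the median r with Mog 0.493, or 0.264 without the 2 farthest pools. Genes of the node of Ranvier and the neurofilaments, most of which are expressed by neurons and mark myelinated axons, had a median r with Mog of 0.913 over 9 genes (0.758 without the 2 farthest pools) and a median log2 fold change of 0.13. Their most abundant gene was Nefl, and Kcna1 (log2 fold change 0.36) was the 1 gene with an unadjusted p under 0.05. The part of these axonal genes in the members' covariation was not tested.

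Genes of the midbrain and of the hypothalamus itself varied with the members. The median r with Mog of the 8 midbrain dopaminergic genes was 0.808 (0.513 without the 2 farthest pools) and all 8 log2 fold changes were above 0 (median 0.53), with Th the most abundant. Of these, 7 had an unadjusted p under 0.05, with log2 fold changes of 1.86 for Slc6a3, 0.55 for Th, 0.32 for Slc18a2, 0.52 for Nr4a2, 1.23 for Pitx3, 1.99 for En1 and 0.48 for Aldh1a1. Th was the 1 gene of the 8 whose groups did not overlap (1.34% of all genes were higher in this way). Its POMC-C451Af/f pools were at 55.4 to 90.8 and its control pools at 42.0 to 51.1 CPM. The 10 hypothalamic genes had a median r with Mog of -0.854 (-0.546 without the 2 farthest pools, where 2 genes, Sim1 and Crh, lay above 0) and 10 log2 fold changes below 0, with a median of -0.22. Trh (log2 fold change -0.23) was the 1 hypothalamic gene with an unadjusted p under 0.05, and Pmch was the most abundant. The part of the midbrain and hypothalamic RNA in the members' values was not tested.

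**Figure D5:**
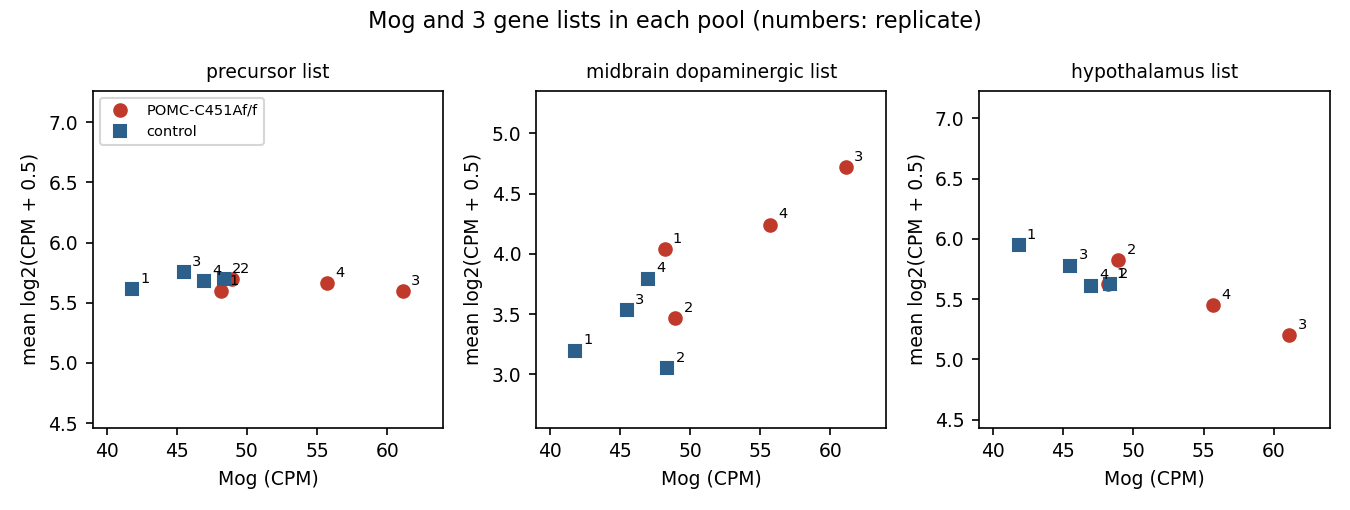
Mean log2(CPM + 0.5) of 3 gene lists (vertical axes) against Mog CPM (horizontal axes) in the 8 pools, with circles for POMC-C451Af/f, squares for control and the replicate number at each point. The midbrain list is highest and the hypothalamus list lowest in POMC-C451Af/f replicate 3, where Mog is highest at 61.1 CPM, while the precursor members stay level.

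Other cell types were counted in the same way, each with 0 genes called. Leptomeningeal fibroblast genes, with Igf2 the most abundant, summed to 107, 203, 86.4 and 86.2 against 195, 107, 219 and 75.4 CPM over 7 genes, with a median r with Mog of -0.554 (-0.372 without the 2 farthest pools) and a median log2 fold change of -0.25. POMC-C451Af/f replicate 2 and control replicates 1 and 3 held the most of them. The 4 tested pituitary genes, with Prl the most abundant, had 4 log2 fold changes below 0 (median -1.203), and this direction rests on control replicate 1, which held Prl at 1013 CPM against 7.83 to 163 in the other pools. Schwann cells make peripheral myelin, and of their 6 genes, 4 were tested, with a median log2 fold change of -0.13 and Pmp22 the most abundant. Foxd3, a factor of the neural crest that Schwann cells come from, had counts of 0 to 2 per pool.

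Of 7 astrocyte genes, with Aldoc the most abundant, 3 had an unadjusted p under 0.05, namely Aqp4 at log2 fold change 0.29 (adjusted p = 0.198 by edgeR), Slc1a2 at 0.083 and Aldh1l1 at -0.086. Of 7 microglial genes, 2 had an unadjusted p under 0.05 and were higher, namely Cx3cr1 at log2 fold change 0.13 and P2ry12 at 0.13. Of 8 neuronal genes, with Snap25 the most abundant, Slc17a6 at log2 fold change 0.14 had an unadjusted p under 0.05. Median log2 fold changes were -0.022 for astrocytes, 0.081 for microglia and -0.0011 for neurons. Endothelial and mural genes, with Cldn5 the most abundant, had a median of 0.028, and choroid plexus genes, with Clic6 the most abundant, a median of 0.20 with 3 genes above 0 and 3 below, from -0.98 for Kcnj13 to 0.92 for Ttr. In the endothelial and mural list and in the choroid plexus list, 0 genes had an unadjusted p under 0.05. The median r with Mog was -0.21 for astrocytes (range -0.83 to 0.87), 0.185 for microglia (-0.56 to 0.86) and 0.24 for neurons (-0.42 to 0.905). It was 0.493 for endothelial and mural genes (-0.52 to 0.903) and 0.016 for choroid plexus genes (-0.75 to 0.84). Single genes of other cell types thus followed Mog as closely as many myelinating members did.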

How the data were processed

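RNA sequencing (poly(A), stranded, paired reads) of 8 hypothalamus pools was used. According to the authors, reads were checked with FastQC 0.12.1 and quantified with Salmon 1.10 against GENCODE vM32, and transcripts were summed to genes in R 4.4, so the deposited gene table holds estimated counts that are not normalized. The authors' comparison table, from DESeq2 1.40, holds mean levels, fold changes and p-values and was not used.

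Counts were rounded and fitted with edgeR 4.0.16 (TMM, filterByExpr with a minimum count of 10 and a total of 15, quasi-likelihood test, genotype only) in R 4.3.3. P-values were adjusted by Benjamini and Hochberg over 18637 genes, and a call needed FDR under 0.05 and a log2 fold change beyond 0.5 in either direction. Standard errors are the fold change over the root of F. TMM factors were 0.984 to 1.02. Correlations used Python 3.11.15 and NumPy 2.4.6. Shared sequence was searched with blastn 2.17.0 at 90% identity or more. The steps were tested on simulated data, and thresholds of that test were restated for genes above 5 CPM after a first run missed them.

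The members and lists were chosen with earlier results of these data known. Every member is named. Pool values are given for 23 members fixed by stage and for any other with an unadjusted p under 0.05 or with groups that do not overlap. Of the other lists, genes with an unadjusted p under 0.05 and the most abundant gene per kilobase are named, and the 10 genes most correlated with Mog, except a few genes that are not reported here.

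Alternatives were DESeq2 1.42.0, DESeq2 size factors, total counts, other filters on low counts, FDR alone, a replicate block, each pool left out, POMC-C451Af/f replicates 3 and 4 left out together, and, for correlations, other scales, a pseudocount of 5, centring on genotype and other index genes. The midbrain covariate and the Mog correlation without POMC-C451Af/f replicates 3 and 4 were chosen after seeing the data.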

Additional observations from a re-analysis of the deposited data

Results flagged for a closer look

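Each genotype's 4 pools were checked for a pool far from the others, for all 30 members, by the gap to the nearest pool over the whole range beyond Dixon's critical value. Of 60 groups, 2 held such a pool, while chance flags about 1 in 20 groups. Control replicate 1 had Mbp at 2189 CPM, with the other control pools at 2594 to 2665 CPM, a gap of 0.851 of the range. It also had Mag at 161 CPM, with the others at 194 to 198 CPM, a gap of 0.891 of the range. Control replicate 1 also held the highest sum of anterior pituitary genes, 1447 CPM, and the part of that tissue in the low values was not tested.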

How the results depend on the processing

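Members called stayed at 0 in all 9 alternatives to the fit or threshold and with each pool left out. The count of members with an unadjusted p under 0.05 went from 7 (5.1% of all genes) to 11 with no filter on low counts (4.68%), 14 with the replicate number as a block (6.06%), 1 without both POMC-C451Af/f replicates 3 and 4 (3.04%), 0 with the midbrain covariate (2.98%), and 2 to 13 with single pools left out (3.37% to 9.38%). The replicate numbers do not pair the pools, since deviations from the genotype means correlated at -0.18 to 0.24 within a number, so the block is not a design of the study. Genes called went from 4 to 13 with DESeq2, 2 with at least 10 counts in every pool, 2 with the block and 7 without both POMC-C451Af/f replicates 3 and 4, and 4 to 5 with single pools left out.

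The myelinating median of 0.17 was 0.034 without both POMC-C451Af/f replicates 3 and 4, -0.0038 with the covariate and 0.13 to 0.21 with single pools left out. Without both POMC-C451Af/f replicates 3 and 4 the newly formed median was -0.016 and the lineage factor median -0.0049. With the covariate, the newly formed median was -0.062 and the lineage factor median -0.020. With single pools left out, medians were -0.072 to -0.024 for precursors, 0.020 to 0.11 for newly formed genes and 0.014 to 0.097 for lineage factors. The median correlation with Mog of 0.89 was 0.643 as Spearman rho, 0.836 with Mobp and 0.153 with Gapdh as index gene, 0.682 without both POMC-C451Af/f replicates 3 and 4, and 0.842 to 0.917 with single pools left out. The cause was not tested for any of these.

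Log2 fold changes of some members turned sign. Without both POMC-C451Af/f replicates 3 and 4 they were 0.0082 for Pdgfra, -0.0017 for Bcas1, -0.0049 for Olig1, -0.050 for Sox10, -0.024 for Opalin, -0.00037 for Apod, -0.042 for Tspan2, -0.029 for Aspa and -0.0057 for Cldn11. With the covariate they were -0.0065 for Bcas1, -0.020 for Olig1, -0.082 for Sox10, -0.0093 for Myrf, -0.0023 for Mbp, -0.010 for Mobp, -0.031 for Cnp, -0.042 for Opalin, -0.0054 for Fa2h, -0.026 for Trf, -0.077 for Tspan2, -0.012 for Aspa, -0.013 for Ermn and -0.035 for Cldn11. Apod was -0.0037 on total counts and -0.00074 with no filter. With single pools left out, ranges that crossed 0, among the members given pool by pool, were -0.040 to 0.00094 for Pdgfra, -0.088 to 0.0087 for Gpr17, -0.021 to 0.035 for Olig1, -0.067 to 0.077 for Apod and -0.10 to 0.032 for Hapln2.

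Limits are 4 pools of 2 animals per genotype, bulk tissue, and gene counts that show neither isoforms nor protein. The sum of the midbrain marker genes differed between pools and was on average higher in POMC-C451Af/f. The member at the lowest level was Enpp6, at 5.95 to 9.77 CPM.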
